A study of Mus musculus with 2 samples.

Results

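Stem_cell_1 is the name the authors gave to 684 of 3041 epithelial cells in a single-cell RNA sequencing series of 14097 cells from mouse distal colon adenomas. Its members were taken as every cell that the deposited epithelial annotation calls Stem_cell_1, and all 684 are also called epithelial in the annotation of all cells. The mice carried Apcmin, a truncating allele of the Wnt pathway brake Apc that causes intestinal adenomas, and LSL-mTERT, an allele in which the telomerase gene Tert sits behind a removable stop cassette. Both samples were distal colon adenoma from mice aged 25 weeks, 1 labelled G0+T and the other G4+T, and the labels name no Cre driver and no number of mice per sample. A second deposited annotation names every cell CIN_high or CIN_low, where CIN stands for chromosomal instability. All 6189 CIN_high cells carry the cell name suffix 1 and all 7908 CIN_low cells the suffix 2, so each class is 1 library. Every cell name begins with G0, in either class. The classes were therefore not assigned to G0+T or G4+T here, and values are given for the CIN_high and the CIN_low library. With 1 library per class no difference between them has a replicate check. Intervals below are 95% intervals for counting error of unique molecular identifiers (UMIs) or cells only. Class, animal, tumour and library cannot be told apart.

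Stem cells at the base of a colonic crypt express Lgr5, a receptor for R-spondins, and Ascl2, a transcription factor that maintains the stem state, and are kept by Wnt signalling. Smoc2 marks the same cells and Axin2 is a direct Wnt target and feedback inhibitor. After injury, and in some adenomas, epithelium can instead enter a fetal-like regenerative state marked by Ly6a (Sca-1), Clu and annexins, in which the classical stem markers are low. Loss of telomere protection is read by cells as DNA damage and engages p53, and micronuclei from missegregated chromosomes can engage cytosolic DNA sensing and interferon signalling.

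Stem_cell_1 made up 346 of 1316 epithelial cells in CIN_high (26.3%, interval 23.9 to 28.8%) and 338 of 1725 in CIN_low (19.6%, 17.7 to 21.5%). Depth was similar, at a median of 14899 UMIs and 4004 genes per cell in CIN_high and 14709 UMIs and 4182.5 genes in CIN_low, with summed totals of 6030898 and 6389276 UMIs. Mitochondrial transcripts made up a median of 12.5% and 10% of UMIs. Scrublet called 3 and 2 of these cells doublets, and 1 and 2 carried a barcode that also occurs in the other library. Levels below are summed UMIs of a gene per 10000 summed UMIs of the group.

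The markers that the name implies were present, but they did not set these cells apart. Lgr5 was at 1.08 UMIs per 10000 (1 to 1.17) in CIN_high Stem_cell_1 cells, beside 0.953 (0.887 to 1.02) in Cancer_cell_1, the most numerous epithelial subtype. In CIN_low the order was the other way round, with 0.635 (0.575 to 0.7) in Stem_cell_1 and 0.877 (0.825 to 0.932) in Cancer_cell_1. Ascl2 stood at 0.255 and 0.349 in the CIN_high and CIN_low libraries, below Proliferating cells at 0.316 and 0.481. In CIN_high the intervals of those Ascl2 levels overlapped, and so did those of Stem_cell_1 and Cancer_cell_1 at 0.202. Smoc2 ranked 4 and 5 of the 6 subtypes with at least 50 cells in the library, at 0.69 and 0.988, against 1.48 and 2.14 in Cancer_cell_1. Axin2 ranked 3 and 5, at 2.05 and 1.59, against 3.38 and 4.18 in cells named p57+_cancer_cell. Enterocytes, which should lack these genes, were at or below 0.105 for each of the 4. Only 29 of 346 CIN_high and 40 of 338 CIN_low Stem_cell_1 cells had a UMI of all 4 markers, and 33 and 39 had none.

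Genes of the regenerative state were higher than in Cancer_cell_1. Ly6a, a surface protein of fetal-like gut epithelium, was at 13.3 and 13.6 UMIs per 10000 in the CIN_high and CIN_low libraries, against 2.43 and 1.53 in Cancer_cell_1, and only enterocytes were higher, at 23.6 and 27.1. Clu, a secreted chaperone that marks revival stem cells, was at 6.59 and 2.59, against 2.64 and 1.8 in Cancer_cell_1. Enterocytes were at 4.15 and 4.98, so that Clu was highest in Stem_cell_1 in CIN_high and second to enterocytes in CIN_low. Of the 4 markers behind the name, Lgr5 was highest in these cells in CIN_high, and the others were higher in another subtype in each library. Stem_cell_1 is used here as the authors' name only.

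**Figure D1:**
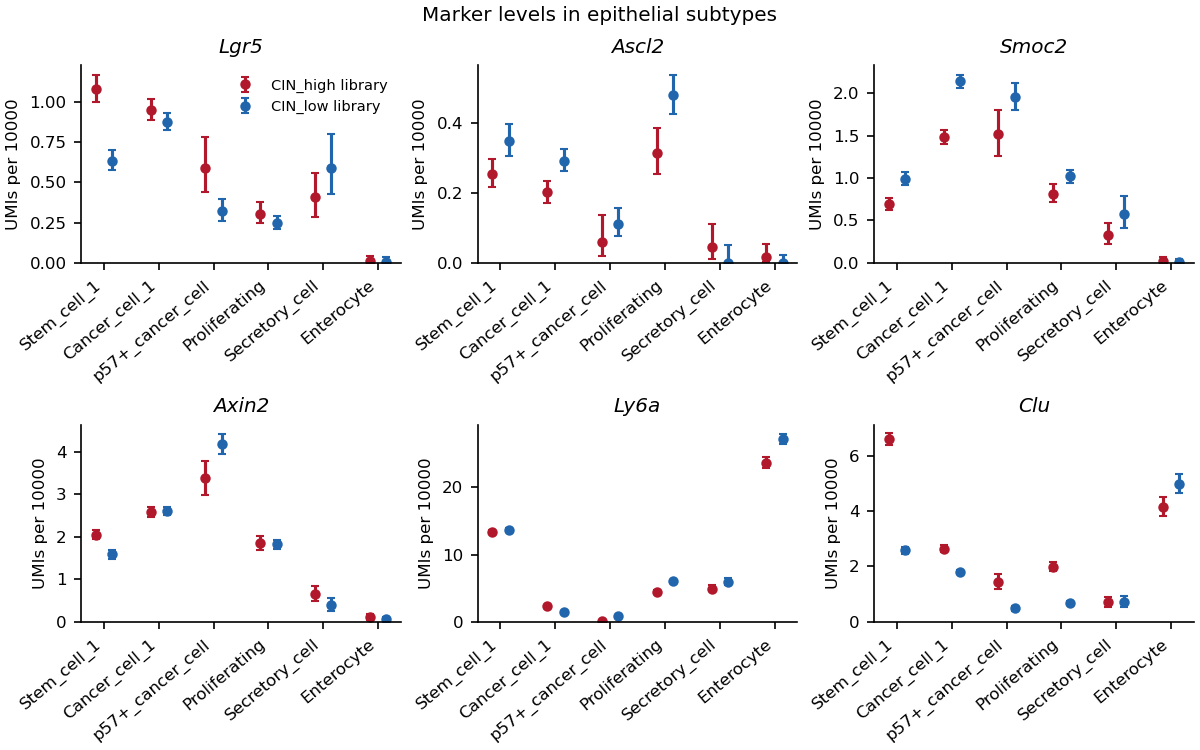
Level of 6 genes in UMIs per 10000 (y axis) in the epithelial subtypes (x axis); points are the value of 1 library, red CIN_high and blue CIN_low, and bars are 95% intervals for counting error. Stem_cell_1 is highest for Lgr5 in CIN_high only, below Cancer_cell_1 and p57+_cancer_cell for Smoc2 and Axin2, and second to enterocytes for Ly6a.

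Lgr5 divided the cells. Among cells with at least 5000 UMIs, 151 of 310 in CIN_high and 131 of 307 in CIN_low had an Lgr5 UMI. Smoc2 went with it, being found in 64.2% of cells with and 18.9% of cells without Lgr5 in CIN_high, and in 77.1% and 39.2% in CIN_low. Krt14, a basal keratin of squamous epithelium, showed the reverse, in 14 of 151 against 34 of 159 cells in CIN_high and 7 of 131 against 40 of 176 in CIN_low. Krt20, a keratin of differentiating colonocytes, was in 3 of 151 against 29 of 159 cells, and in 3 of 131 against 20 of 176. Cells without an Lgr5 UMI were the deeper ones (medians of 18685 against 13630 UMIs in CIN_high and 18015 against 14329 in CIN_low), and at a common 5000 UMIs the expected shares for Krt14 were 3.85% and 9.63% in CIN_high and 3.44% and 13.9% in CIN_low. Ly6a was found in over 90% of cells with and without Lgr5. At a common 5000 UMIs its expected shares were 83% with and 89.7% without Lgr5 in CIN_high, and 78.8% and 87.6% in CIN_low.

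Against all other epithelial cells of the same library, 340 of 8644 measured genes (3.93%) were at least 1.5-fold higher in both libraries and 593 (6.86%) at least 1.5-fold lower; a gene counted as measured from a mean level of 0.1 UMIs per 10000. This is a description with no test, because the cells had been grouped on these same genes. The 15 genes with the largest differences were of several kinds. Sprr2b, a small proline-rich protein of the cornified envelope, was at 0.158 and 0.858 in the CIN_high and CIN_low libraries against 0.0179 and 0.0268 in the other cells, and 24 CIN_low cells held all of its UMIs. Dsg3, a desmosomal cadherin of squamous epithelium, was at 0.197 and 0.224 against 0.0256 and 0.0291. Krt14 was at 0.356 and 0.607 against 0.108 and 0.0679, and the hair keratin Krt36 at 1.48 and 1.52 against 0.386 and 0.252. Lgr6, a relative of Lgr5 found in skin stem cells, was at 0.234 and 0.455 against 0.0583 and 0.1. Ccl2, which attracts monocytes, was at 0.677 and 0.451 against 0.117 and 0.0741. Ccn2, a YAP target, was at 0.368 and 0.243 against 0.0737 and 0.0668, and mesothelin (Msln) at 0.516 and 0.186 against 0.0724 and 0.0652. Acta1, a skeletal muscle actin with the next largest difference after Sprr2b, was at 0.396 and 0.139 against 0.0397 and 0.0229, and Khdc1a at 0.39 and 0.402 against 0.0468 and 0.0629. The rest were Krt90, Cavin3, Bcl2l15, Ifit3 and Ubd.

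Of the 23 measured genes of the fetal-like and regenerative list, 15 were higher in both libraries and 0 lower, with a median log2 ratio of 1.04 in CIN_high and 0.82 in CIN_low beside -0.056 and -0.05 over all measured genes. Among them the annexin Anxa1 was 2.53-fold and 2.9-fold higher, F3 (tissue factor) 3.52-fold and 4.09-fold, and the EGF receptor ligand Areg 2.19-fold and 1.77-fold. Ly6e, Anxa5, Spp1, Ccn1, S100a6 and Plaur were among those that did not pass in both. Crypt base stem cell genes were split, with 4 of 21 higher and 4 lower. The higher ones were Cdca7, the ion transporter Slc12a2, the EGF receptor inhibitor Lrig1 (2.93-fold and 2.66-fold) and the surface glycoprotein Cd44, and the lower ones were Smoc2, Znrf3, Tnfrsf19 and Clca4b. Type I interferon response genes were higher for 12 of 24 and lower for 0, including Ifit3 (5.89-fold and 3.19-fold) and Oasl2 (2.76-fold and 2.96-fold). Beside these lists, 3.93% of all measured genes were higher in both libraries and 6.86% lower.

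Secretory and proliferative genes were lower than in all other epithelial cells together, which include the subtypes named Secretory_cell and Proliferating. Against Cancer_cell_1 alone Mki67 was higher, at 0.287 and 0.369 against 0.18 and 0.262, and so was Muc2, at 0.196 and 0.0548 against 0.0548 and 0.0296. All 8 measured goblet cell genes were lower in both libraries, among them the mucus protein gene Muc2 at 0.196 and 0.0548 against 3.46 and 0.707. In the G2 and M phase list 17 of 18 genes were lower (median log2 -2.86 and -2.89), with Top2a at 0.162 and 0.203 against 1.42 and 1.91, and in the S phase list 14 of 19. Of the 6 measured secreted and surface Wnt antagonists 5 were lower, for instance Wif1, which binds Wnt ligands, at 0.675 and 0.783 against 4.42 and 5.52. The exception was Dkk2, at 1.22 and 1.52. Over all measured genes 6.86% were at least 1.5-fold lower in both libraries. The acute phase gene Saa1 had 3 and 1 UMIs in Stem_cell_1 and 2454 and 3128 in the other cells, and the lipases Pnliprp1 and Pnliprp2, Clca4a, Mptx2, Zg16, Dkk3, Neb and Gsdmc4 were also among the 10 largest decreases. Clca4b was lower against all other cells but not against Cancer_cell_1 alone, where its mean log2 ratio was 2.79.

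**Figure D2:**
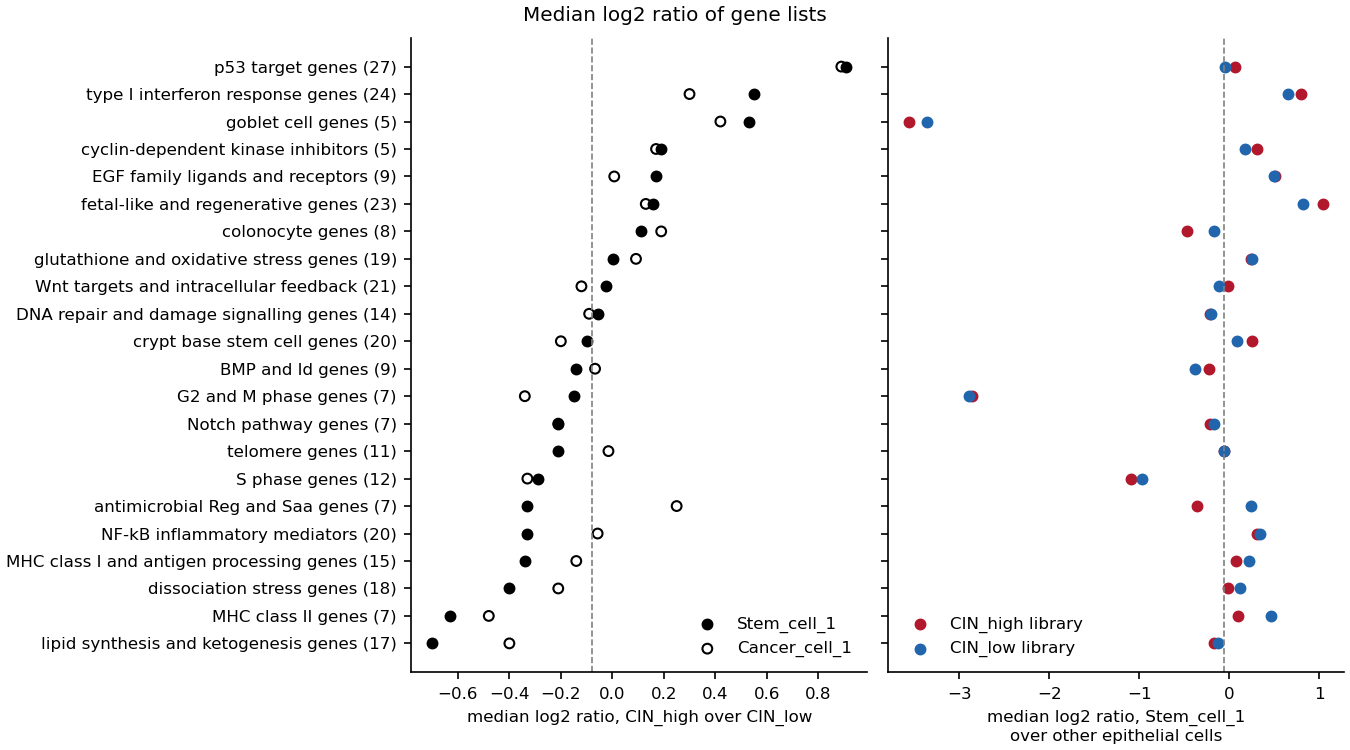
Median log2 ratio of each gene list with at least 5 measured genes (number in brackets): left, CIN_high over CIN_low in Stem_cell_1 (filled) and Cancer_cell_1 (open); right, Stem_cell_1 over the other epithelial cells in each library. Dashed lines are the medians of all measured genes. In the left panel p53 targets (0.91) and interferon genes (0.55) lie highest and lipid synthesis genes (-0.70) lowest.

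Between the libraries, 248 of 8355 measured genes (2.97%) were at least 1.5-fold higher in CIN_high Stem_cell_1 cells and 359 (4.3%) at least 1.5-fold lower, with a median log2 ratio of -0.078 over all genes. In Cancer_cell_1 the shares were 1.9% and 2.53% of 8566 genes. The p53 target genes were the list with the highest median, 0.91, and 16 of 27 were at least 1.5-fold higher and 0 lower. Cdkn1a, the cell cycle inhibitor p21, had a level of 5.86 in CIN_high cells and 3.13 in CIN_low cells, a ratio of 1.87 (1.77 to 1.98). Phlda3, which restrains Akt, was at 1.71 and 0.587 (2.91-fold, 2.58 to 3.28), Eda2r, a death receptor family member, at 0.313 and 0.0736 (4.26-fold, 3.08 to 6), and Psrc1 at 0.38 and 0.128 (2.96-fold, 2.29 to 3.86). Ddit4l, an inhibitor of mTOR signalling, was at 0.259 and 0.0532 (4.86-fold, 3.34 to 7.27). The apoptosis genes Pmaip1 (ratio 0.893) and Tnfrsf10b (1.1), and Btg2 (0.922) and Xpc (0.975), did not pass. Trp53 itself was at 1.16 and 1.37. Ccng1, a cyclin induced by p53, was at 1.65 and 0.617 (2.68-fold, 2.38 to 3.02). Cancer_cell_1 had 17 of 27 higher and a median of 0.89, so the list did not set Stem_cell_1 apart.

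Gdf15 differed between the subtypes. This stress cytokine, counted with the p53 targets, was at 1.39 and 0.484 in the CIN_high and CIN_low Stem_cell_1 cells and at 1.46 and 1.24 in Cancer_cell_1, and the difference of the log2 ratios was 1.28 (1.06 to 1.5). Osteopontin (Spp1) was at 1.74 and 0.444 in Stem_cell_1 (3.91-fold, 3.43 to 4.47) and at 0.367 and 0.335 in Cancer_cell_1, a difference of 1.84 (1.55 to 2.12). Of 7913 genes with at least 50 UMIs in each of the 4 sums compared, 444 passed 1.5-fold in Stem_cell_1 and 262 in Cancer_cell_1, and 118 passed the same way in both, which is 26.6% of the first list and 45% of the second. The difference of log2 ratios was itself at least 1.5-fold with an interval clear of 0 for 119 genes that were relatively higher in Stem_cell_1 and 176 that were lower. Pmp22, Alg11, Arf2 and Gjb1 were, after Spp1 and with Gdf15, the largest of the former, and Tnip3, Car1, Krt15, Asprv1, Slpi and Pid1 of the latter.

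Interferon response genes were at least 1.5-fold higher in CIN_high for 10 of 24 and lower for 0, with a median of 0.55, against 4 of 19 and 0.30 in Cancer_cell_1. Of all measured genes 2.97% passed upward in Stem_cell_1 and 1.9% in Cancer_cell_1. Ifit3 was at 0.532 and 0.213 (2.5-fold, 2.04 to 3.08) and Ifit1 at 0.648 and 0.277 (2.34-fold, 1.95 to 2.81); both proteins bind foreign RNA. Isg15, a ubiquitin-like modifier, was at 1.69 and 0.967 (1.75-fold, 1.58 to 1.93), and Irf7, the transcription factor that amplifies interferon production, at 1.26 and 0.599 (2.11-fold, 1.86 to 2.39). Dhx58 (LGP2), a regulator of RNA sensing outside the list, was at 0.36 and 0.0892 (4.03-fold, 3 to 5.5). Irf9 (0.976), part of the signalling chain, and Zbp1 (0.998) were not higher. Of 3 genes outside the list that interferon gamma is known to induce, each was lower in CIN_high; they were singled out after their values were seen. Ido1 was at 0.136 and 0.664, Cxcl9 at 1.06 and 3.45, and the class II transactivator Ciita at 0.116 and 0.279 (2.4-fold lower).

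The 4 interferon genes below were at least 1.5-fold higher and had the core of the interferon-stimulated response element, GAAANNGAAA on either strand, in the 250 bases before their start. Their sequences, from RefSeq on GRCm38.p6 and on the gene's strand, are shown so that the matches can be read, and other list genes also passed 1.5-fold; capitals mark each match, and overlapping matches run together.
Isg15 (chr4:156200819-156201068, minus strand): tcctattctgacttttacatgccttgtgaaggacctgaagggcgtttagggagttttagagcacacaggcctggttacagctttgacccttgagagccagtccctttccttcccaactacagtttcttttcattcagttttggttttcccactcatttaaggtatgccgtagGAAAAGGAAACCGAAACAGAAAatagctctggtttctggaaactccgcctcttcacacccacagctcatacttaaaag
Ifit3 (chr19:34583279-34583528, plus strand): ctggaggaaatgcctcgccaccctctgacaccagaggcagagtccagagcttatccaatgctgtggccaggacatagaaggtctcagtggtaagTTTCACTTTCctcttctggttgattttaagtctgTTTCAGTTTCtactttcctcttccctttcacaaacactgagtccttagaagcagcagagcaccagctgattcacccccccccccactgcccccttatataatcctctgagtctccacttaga
Ifit1 (chr19:34640639-34640888, plus strand): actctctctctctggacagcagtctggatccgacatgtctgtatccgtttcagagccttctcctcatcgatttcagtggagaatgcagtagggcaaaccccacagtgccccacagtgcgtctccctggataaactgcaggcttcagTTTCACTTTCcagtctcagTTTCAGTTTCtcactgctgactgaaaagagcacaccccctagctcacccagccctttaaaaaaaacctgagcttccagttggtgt
Oas1g (chr5:120887614-120887863, minus strand): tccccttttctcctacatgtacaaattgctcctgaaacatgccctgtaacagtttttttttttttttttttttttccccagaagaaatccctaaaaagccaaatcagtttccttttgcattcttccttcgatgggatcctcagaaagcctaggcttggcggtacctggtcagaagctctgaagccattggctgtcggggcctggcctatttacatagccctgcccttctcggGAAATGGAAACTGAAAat
Of the 18 list genes found in the promoter table, 9 held the motif (50%), as did 4 of the 7 that were at least 1.5-fold higher (57.1%). Among all 27025 promoters of that length 936 held it (3.46%), and 1 of 29 p53 target promoters did (3.45%). A match is a match of letters and not a measured binding site.

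Lipid synthesis genes were the list with the lowest median, -0.70, with 10 of 17 at least 1.5-fold lower in CIN_high. Of all measured genes 4.3% passed downward. The desaturases were lowest: Fads1 at 0.124 and 0.371 (2.98-fold lower), Scd1 at 0.207 and 0.551 (2.66-fold) and Fads2 at 0.691 and 1.4 (2.03-fold). Sterol pathway genes followed, with Hmgcs1 1.73-fold, Sqle 1.72-fold and Insig1 1.76-fold lower, and the list gene Srebf1 was 1.73-fold lower. In Cancer_cell_1 4 of 17 passed downward, beside 2.53% of all measured genes, and the median was -0.40.

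MHC class II genes were lower as well, with 4 of 7 past 1.5-fold, beside 4.3% of all measured genes, and a median of -0.63. Cd74, the invariant chain, was at 12.7 and 19.7 and H2-Aa at 1.72 and 3. NF-kB inflammatory mediators had 8 of 20 lower and 1 higher, among them the chemokine Cxcl2 at 2.51 and 4.5 and Il1b at 0.23 and 0.742. Il1b is a product of neutrophils and macrophages: the summed level of 6 neutrophil markers in Stem_cell_1 cells was 1.77 in CIN_high and 4.57 in CIN_low, against 219 and 498 in cells annotated as myeloid, and the 3 of them that were measured were each at least 1.5-fold lower in CIN_high. That of 8 macrophage and monocyte markers was 0.468 and 0.894, and none of these markers was at 0. Their part in the Il1b, Cxcl2 and MHC class II results was not tested. Of 18 genes induced by tissue dissociation 4 were lower in CIN_high and 0 higher, with Fos at 7.53 and 11.4.

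The remaining large differences did not group. Stox2 was 6.06-fold higher in CIN_high (4.41 to 8.48), the adhesion molecule Mcam 6.47-fold (3.96 to 11.1), the noncoding RNA Pvt1 next to Myc 6.03-fold (3.85 to 9.85), the repair enzyme Mgmt 4.52-fold (3.37 to 6.16) and the monocyte chemokine Ccl7 5.72-fold (4.38 to 7.57). Mcam and Mgmt had ratios of 7.47 and 4.59 in Cancer_cell_1. Muc3, Ddah1 and Muc2 were 4.22-fold, 4.2-fold and 3.57-fold higher. Lower in CIN_high were the growth factor pleiotrophin (Ptn, 8.02-fold), Sprr2b (5.44-fold), Hdc, which makes histamine (4.32-fold), Bcl2l15, Ifitm1, Car1, Slpi, the distal patterning gene Hoxd13 (3.11-fold) and Pcdh19. Sprr2b was detected in 28 of 346 CIN_high and 24 of 338 CIN_low cells, and 1 CIN_low cell held 36.7% of its UMIs there. Of the name's markers, Lgr5 was 1.71-fold higher (1.51 to 1.94) and Axin2 1.29-fold higher (1.19 to 1.41), whereas Smoc2 and Ascl2 were 1.43-fold and 1.37-fold lower. Clu was 2.55-fold higher (2.41 to 2.7). Telomerase (Tert) had 0 UMIs in 346 CIN_high cells and 15 UMIs in 12 of 338 CIN_low cells (3.55%). The interval for the share of CIN_high cells with a UMI reaches 1.06%, which sets no limit on cells that express Tert. Tert also had 0 UMIs in the 970 other epithelial and 2930 myeloid cells of CIN_high, and 65 and 4 UMIs in those of CIN_low.

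**Figure D3:**
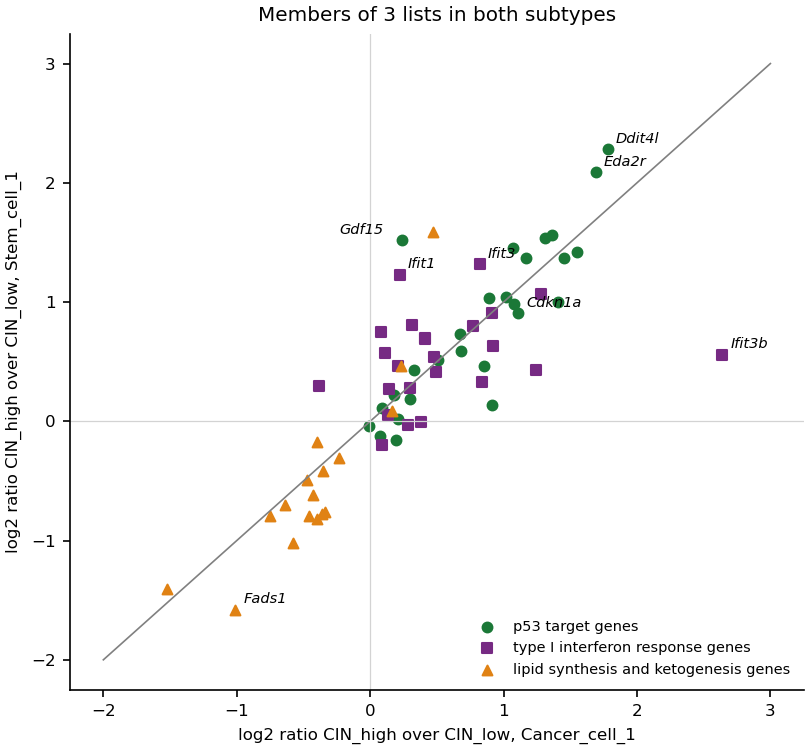
Log2 ratio of CIN_high over CIN_low for measured members of 3 lists, in Stem_cell_1 (y axis) and Cancer_cell_1 (x axis); the line marks equal ratios. Most p53 targets lie near the line, Gdf15 above it (1.52 and 0.24), and lipid genes lie mostly below 0 in both.

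The difference between the libraries was uneven along the genome, and 1 stretch stood out. In windows of 10 Mb, the 4 windows of chromosome 11 from 90 Mb to its end had median log2 ratios of 0.439, 0.448, 0.434 and 0.475 above that of all genes, whereas the other 217 windows lay between -0.246 and 0.172. The stretch was noticed in these data and its start was set after the values were seen, so what follows is a description. Of its 272 measured genes, 255 (93.8%) had a ratio above the median of all genes, 52 (19.1%) were at least 1.5-fold higher and 3 lower. Of the 421 measured genes on the rest of chromosome 11, 211 were above the median and 15 (3.56%) at least 1.5-fold higher. In windows of 5 Mb the median was 0.0229 at 75 to 80 Mb, 0.0912 at 80 to 85 Mb, 0.203 at 85 to 90 Mb, 0.358 at 90 to 95 Mb and 0.459 at 95 to 100 Mb, and it stayed between 0.342 and 0.514 to the chromosome's end. The stretch holds genes of unlike function, such as Axin2 (chr11:108920349-108950783), Dhx58 (chr11:100694884-100704271), the Wnt target Sox9 (1.29-fold, 1.19 to 1.4), the p53 list gene Dcxr (2.73-fold, 2.46 to 3.04), Krt19 (1.32-fold, 1.29 to 1.34) and Krt20 (2.47-fold, 1.8 to 3.42). Without it, 196 of 8083 genes were at least 1.5-fold higher in CIN_high and 356 lower.

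**Figure D4:**
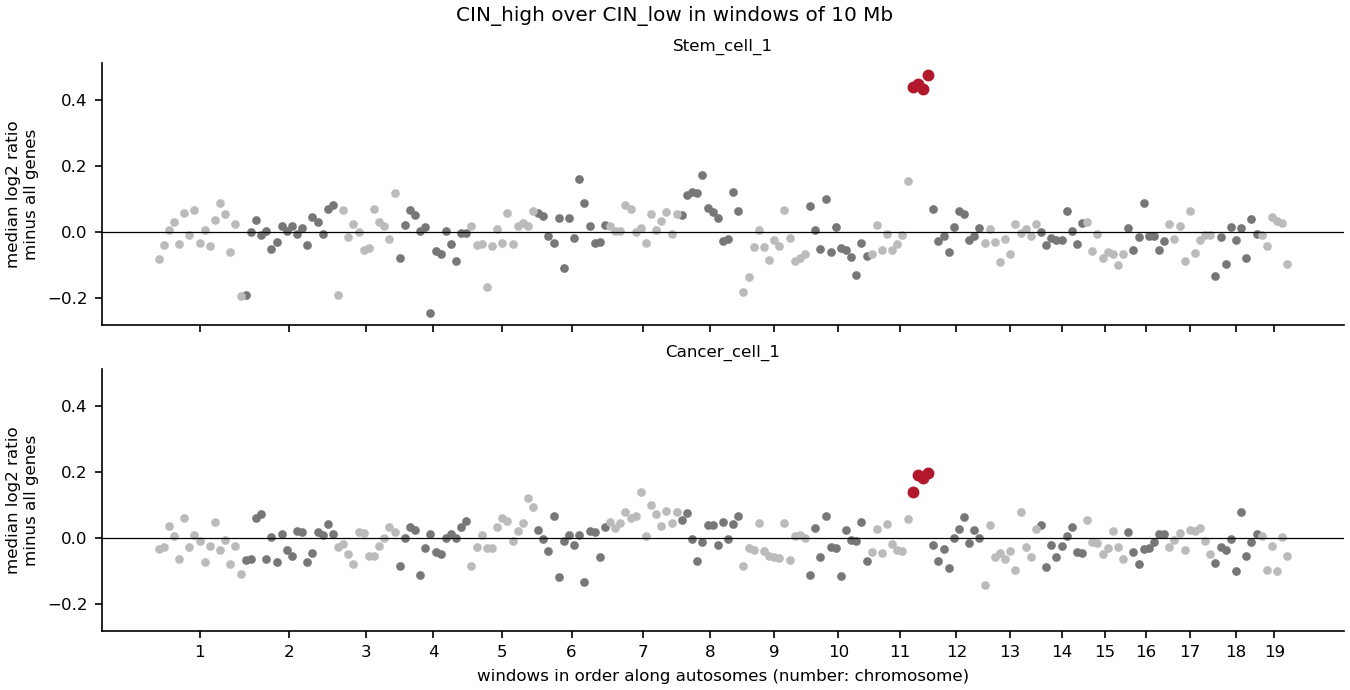
Median log2 ratio of CIN_high over CIN_low in each window of 10 Mb with at least 10 measured genes, minus the median of all genes (y axis), for Stem_cell_1 and Cancer_cell_1; windows are in order along chromosomes 1 to 19. Red points are the last 4 windows of chromosome 11, at 0.434 to 0.475 in Stem_cell_1 and 0.14 to 0.195 in Cancer_cell_1.

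The shift was a matter of some cells and not of all. For each cell with at least 5000 UMIs, the share of UMIs from this stretch was taken over 248 of its genes among 7664 autosomal genes, leaving out genes above 3 UMIs per 10000, keratins and CC chemokines so that no single gene set the value. In CIN_low Stem_cell_1 cells the share was narrow, with a median of 3.14%, a 95th percentile of 3.59% and a highest value of 4.11%. In CIN_high it spread into 2 humps, with quartiles at 3.14% and 4.83%, a median of 4.22% and a highest value of 7.13%. Above the 99th percentile of CIN_low cells, 3.99%, lay 170 of 310 CIN_high cells (54.8%, 49.1 to 60.5%) and, by construction, 4 of 307 CIN_low cells. Within 0.25 percentage points of that value were 27 CIN_high and 8 CIN_low cells. With each subtype's own 99th percentile, the share of CIN_high cells above was 21% in Cancer_cell_1 (107 of 510, 17.5 to 24.8%), 31.5% in Proliferating (34 of 108, 22.9 to 41.1%), 32.7% in Secretory_cell (16 of 49, 19.9 to 47.5%), 14.1% in p57+_cancer_cell (10 of 71, 6.97 to 24.4%) and 3.41% in Enterocyte (3 of 88, 0.709 to 9.64%). The genes of this measure and their cap were set on Stem_cell_1 levels and then used for the other subtypes. These shares therefore do not rank the subtypes on equal terms. With genes up to 10 UMIs per 10000 and with keratins and chemokines, the share in Stem_cell_1 was 26.5%. The other subtypes were not computed with that gene set. DNA was not measured here, and whether these cells share an origin was not tested.

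To see what else differed in these cells, they were chosen on alternate genes of the stretch and measured on the others. The 171 CIN_high cells chosen this way had a median of 17249 UMIs, and the other 139 had 15640. Over the 124 stretch genes that had not been used, the chosen cells had a median 1.65-fold above CIN_low, relative to all genes, and the other CIN_high cells 1.04-fold. The rest of chromosome 11 was at 1.01-fold and 0.978-fold. Among lists with at least 5 measured genes outside the stretch, goblet cell genes had the largest median log2 ratio of chosen over other CIN_high cells. It was 2.17, with 3 of 5 at least 1.5-fold higher and 1 lower. Over all 346 CIN_high cells, 1 cell held 52.1% of the UMIs of Tff3 and 1 cell 31.4% of those of Spink4, both on this list. How far single cells set the median was not tested. Antimicrobial Reg and Saa genes had the lowest, -0.593, with 0 of 7 higher and 4 lower. Of all genes outside the stretch, 3.92% were higher and 4.68% lower.

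Interferon genes were higher in the chosen cells. The stretch genes from which the alternate ones were drawn included the interferon list gene Ifi35 and Dhx58. Their part in this result was not tested. Outside the stretch, 19 of 23 were at least 1.5-fold above CIN_low in the chosen cells and 0 lower, with a median of 1.01 on the log2 scale, where 4.74% of all genes outside the stretch were higher and 5.23% lower. In the other CIN_high cells 0 of 23 were higher and 4 lower, with a median of -0.174, where 3.28% of all genes were higher and 3.91% lower. Ifit1 was at 1.05 UMIs per 10000 in the chosen cells, 0.139 in the other CIN_high cells and 0.274 in CIN_low cells, and the first was 7.54-fold the second (5.34 to 10.9). Ifit3 was at 0.84, 0.146 and 0.206, Rsad2 at 0.407, 0.0693 and 0.187, and Isg15 at 2.49, 0.67 and 0.949. An Isg15 UMI was found in 105 of the chosen cells (61.4%), in 49 of the others (35.3%) and in 120 CIN_low cells (39.1%), and at a common 5000 UMIs the expected shares were 40%, 17.2% and 19.7%. Between the chosen and the other CIN_high cells, 17 of 23 interferon genes were at least 1.5-fold higher and 0 lower, beside 3.92% and 4.68% of all genes outside the stretch. In Cancer_cell_1 the same comparison gave 12 of 23 higher and 0 lower, beside 4.12% and 7.09% of all genes. These 23 were the genes measured in Stem_cell_1, and some had few UMIs in Cancer_cell_1. Ifit3b had 30 UMIs in its chosen cells, 8 in its other CIN_high cells and 9 in its CIN_low cells. In Cancer_cell_1 80 cells of CIN_high were chosen and 430 were not. On all 248 genes 107 lay above the threshold, so the 430 include cells with a raised share. Unlike in Stem_cell_1, the 430 also had interferon genes above CIN_low, with a median of 0.377. Of 23 genes 5 were higher and 0 lower, where 2.77% of all genes were higher and 1.36% lower. In the 80 chosen cells 19 of 23 were higher and 0 lower, where 7.57% and 8.43% of all genes were. The difference between the subtypes was not tested. These cells come from 1 library and are not replicates.

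The p53 targets were high in both groups of CIN_high cells. Relative to CIN_low, 17 of 26 outside the stretch were at least 1.5-fold higher in the chosen cells (median 1.02) and 14 of 26 in the others (median 0.636), with 0 lower in either. Of all genes outside the stretch, 4.74% were higher in the chosen cells and 3.28% in the others. Ccng1 was at 1.72 and 1.61 in the chosen and other CIN_high cells against 0.619 in CIN_low, and Bax at 3.45 and 3.42 against 2.3. Cdkn1a was at 6.55 and 5.05 against 3.14. Gdf15 and Spp1 differed more, at 1.81 against 0.847 and at 2.35 against 1.04, with 0.489 and 0.445 in CIN_low.

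Regenerative genes showed the opposite order. Of 20 outside the stretch, 9 were at least 1.5-fold lower in the chosen than in the other CIN_high cells and 1 higher. Of all genes outside the stretch, 4.68% were lower and 3.92% higher. Clu was at 3.58 in the chosen cells, 10.4 in the others and 2.54 in CIN_low, so that most of its excess in the CIN_high library lay in cells without the raised share. The expected share of cells with a Clu UMI at 5000 UMIs was nevertheless alike, at 54.3% and 54.8%, against 42.1% in CIN_low. Msln was at 0.301, 0.801 and 0.19, F3 at 2.64, 4.87 and 3.38, and Anxa5 at 0.506, 1.1 and 0.964. Ly6a was at 13.3, 13.6 and 13.8. Cancer_cell_1 did not show this order, with 4 of 20 higher and 1 lower in its chosen cells, beside 4.12% and 7.09% of all genes. Its median was 0.00919, and Ly6a was 1.82-fold higher (1.64 to 2.01). Lgr5 was 1.38-fold higher in the chosen than the other CIN_high cells (1.17 to 1.63) and Ascl2 1.6-fold (1.12 to 2.3), while Smoc2 was at 0.554 against 0.851. At 5000 UMIs the expected share of cells with an Lgr5 UMI was alike, at 31.9% in the chosen and 32.7% in the other cells. Axin2, itself in the stretch, was at 2.51 against 1.42. Lipid synthesis genes were low in both groups, with medians of -0.744 and -0.526.

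**Figure D5:**
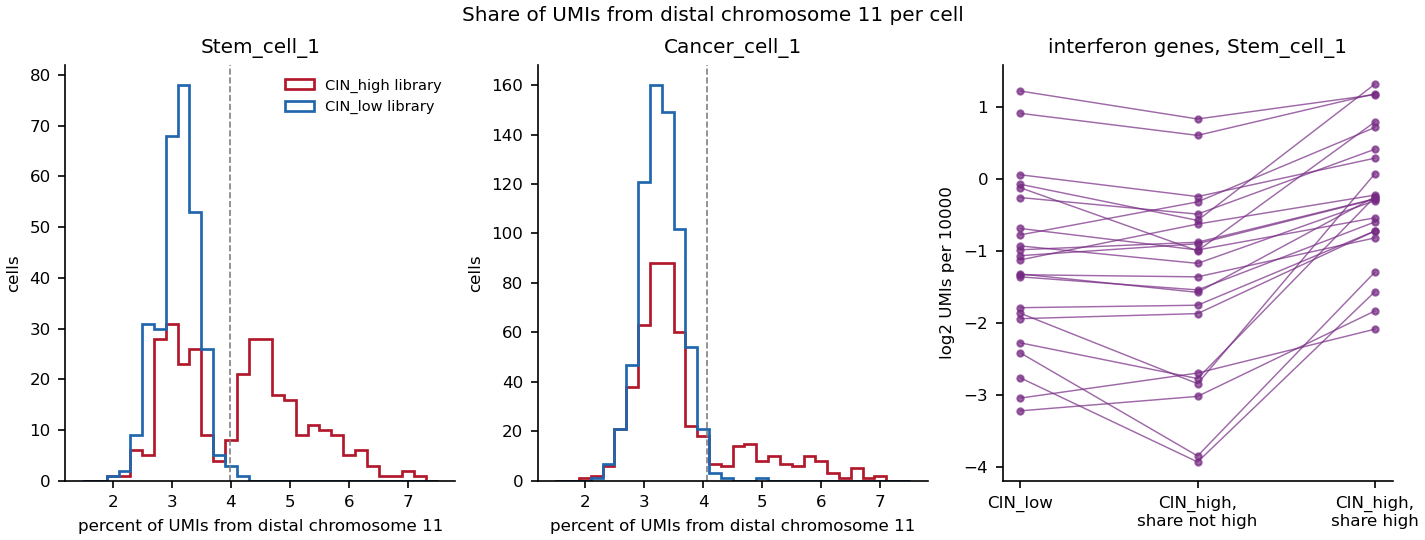
Left and middle, number of cells (y axis) by the percent of a cell's UMIs from chromosome 11 beyond 90 Mb (x axis) in Stem_cell_1 and Cancer_cell_1; dashed lines are the 99th percentile of CIN_low cells, 3.99% and 4.06%. Right, log2 level of 23 interferon genes outside the stretch in CIN_low cells and in CIN_high cells without and with a raised share, each line 1 gene; 19 of 23 genes are at least 1.5-fold above CIN_low in the last group and 0 in the middle one.

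Chromosomes 7, 8 and 9 varied among cells, with little difference between the libraries in the median share per cell. Their median log2 ratios relative to all genes were 0.02, 0.063 and -0.06, against 0.14 for chromosome 11. The index used compares the spread of a chromosome's share among cells with that expected from counting alone, which gives 1. It was 10.9 in CIN_high and 3.21 in CIN_low for chromosome 7, and 10.2 and 2.36 for chromosome 8. The 95th percentile of the chromosome 7 share was 9.55% of UMIs in CIN_high and 7.82% in CIN_low, with medians of 6.95% and 6.99%. For chromosome 8 it was 7.21% and 5.71%, with medians of 5.11% and 5.06%. Above the CIN_low 99th percentile lay 28 of 310 CIN_high cells for chromosome 7 (9.03%) and 35 for chromosome 8 (11.3%). Of the chromosome 7 cells 19 also had a raised chromosome 11 share, which is 11.2% of the 170 such cells, against 9 (6.43%) of the other 140. Of the chromosome 8 cells 19 also had a raised chromosome 11 share, which is again 11.2% of the 170, against 16 (11.4%) of the other 140. Chromosome 9 showed the reverse, with an index of 2.19 in CIN_high and 9.08 in CIN_low: 25 of 307 CIN_low cells (8.14%) lay above the CIN_high 99th percentile of 6.58%, and in Cancer_cell_1 20 of 688 (2.91%) lay above that subtype's own CIN_high 99th percentile, 6.77%. For the chromosomes not named here, the index lay between 1.4 and 6.42 in each library.

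Single genes varied widely among Stem_cell_1 cells, against a median index of 1.22 in CIN_high and 1.26 in CIN_low. The gut hormone peptide YY (Pyy) had the highest index in CIN_high, 897 there and 225 in CIN_low. In CIN_high 1 cell held 73.7% of its 2304 UMIs, and the 10 richest cells held 97.4%. Among those 10 cells 1 had a UMI of the enteroendocrine marker Chga and 1 of Chgb. The goblet cell gene Tff3 (40 and 70.7) was detected in 22 of 346 and 17 of 338 cells, and Spink4 (51.9 and 32.4) in 97 and 68. Wfdc18 differed, with indices of 78.8 and 29 although 91% and 87.6% of cells had a UMI. Those genes were picked for the largest indices. The stem markers had lower ones, with 8.51 and 5.74 for Lgr5, 5.95 and 5.41 for Smoc2 and 1.38 and 1.39 for Ascl2. Of all measured genes, 12% in CIN_high and 13.1% in CIN_low had an index of at least 2, so Lgr5 and Smoc2 also varied widely.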

How the data were processed

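Tumour cells of 2 samples were profiled by droplet single-cell RNA sequencing. Per the submitters' processing notes, Cell Ranger 2.1.1, Seurat and the mm10 genome were used; these sources do not state how cells were filtered. The authors deposited natural log values, ln(1 + UMIs per 10000 of the cell), in 1 matrix of 14097 cells and 21041 genes, with their cell type, epithelial subtype and CIN class for each cell. Whole UMIs were recovered from these values (100% of nonzero values whole within 0.01) and summed per subtype and library, giving levels per 10000 UMIs. Genes with a mean level of at least 0.1 over the 2 groups compared counted as measured, and 1.5-fold was the threshold for a count. Where cells were split by the chromosome 11 stretch, the genes were those measured between the libraries in Stem_cell_1, for Cancer_cell_1 too.

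No test was run, because each class is 1 library. Ratios carry exact conditional binomial 95% intervals, shares exact Clopper-Pearson ones and levels exact Poisson ones, all for counting error only. Below the floor of 3 UMIs no fold is given. Shares at 5000 UMIs are expected values under thinning. The scripts were tested on simulated data. Scrublet in Scanpy 1.11.5 called doublets at an expected 6%, and called cells were kept. Gene positions came from GENCODE on mm10, and promoters from RefSeq on GRCm38.p6. Python 3.11.15, NumPy 2.4.6, pandas 2.3.3, SciPy 1.17.1 and matplotlib 3.10.9 were used.

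The 28 gene lists, the members and the rules were chosen with earlier results of these data known. Genes were named by rule: the 15 largest increases and 10 largest decreases against other epithelial cells, the 12 largest in each direction between libraries, the 12 with the largest spread, the 6 largest differences from Cancer_cell_1 in each direction, fixed markers, and list members. Predicted, mitochondrial, ribosomal protein, hemoglobin and sex-linked check genes were not named. Dhx58 in the interferon account and the genes and cells of distal chromosome 11 were singled out after their values were seen. Alternatives to the minimum level, fold, total, comparator, weighting, depth and doublets were computed. Some list members are not reported here.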

Additional observations from a re-analysis of the deposited data

Results flagged for a closer look

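Of the 7913 genes compared, 3 passed 1.5-fold in opposite directions in Stem_cell_1 and Cancer_cell_1, and whether the subtypes differ was not tested, since each class is 1 library. Car1, a carbonic anhydrase of colonocytes, had a log2 ratio of CIN_high over CIN_low of -1.75 in Stem_cell_1 and 0.66 in Cancer_cell_1, a difference of -2.41 (-2.7 to -2.12). Krt15, a keratin of basal and progenitor cells, had -0.67 and 1.49, a difference of -2.16 (-2.55 to -1.78). Pid1 had -1.09 and 0.61, a difference of -1.7 (-2.26 to -1.13), at levels of at most 0.22 UMIs per 10000.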

How the results depend on the processing

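Of 522 alternative values, 435 moved by less than their interval or stayed within 1.5 times the count, 86 moved further and 1 changed sign: Clca4b, with a mean log2 ratio of 2.79 against Cancer_cell_1 only. Counts followed the minimum level and the fold. Between the libraries, 541 genes were higher and 768 lower from 0.03 UMIs per 10000, 51 and 79 from 0.5, and 76 and 91 at 2-fold. Against other epithelial cells, 137 were higher and 124 lower from 0.5, 122 and 319 at 2-fold, 1270 were lower from 0.03, and 599 were higher against Cancer_cell_1 only. The p53 median was 0.551 from a level of 0.5. The MHC class II median was -0.587 with a total that leaves out mitochondrial, ribosomal protein and hemoglobin genes, and -0.553 relative to all genes. Chosen after seeing the data, 3 alternatives moved values. The interferon median was -0.279 in only the CIN_high cells without the raised chromosome 11 share. CIN_high cells with the raised share were 26.5%, in place of 54.8%, with genes up to 10 UMIs per 10000 and keratins and chemokines kept. The fetal-like median of cells with over cells without that share was -0.338, and -0.211 when the other genes of the stretch chose the cells. The cause of these moves was not tested, except that a higher minimum level or fold admits fewer genes. No paired analysis was possible because each group holds 1 library. At the median depth, genes near 0.1 UMIs per 10000 are seen in few cells.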
